A study of Mus musculus with 10 samples.

Results

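The genes described here encode proteins of synaptic vesicle fusion. The set was given by name as 8 genes, Snap25, Syt1, Syt4, Stx1a, Vamp2, Syp, Syn1 and Rab3a, among 38803 gene symbols in each library's list. The genes were chosen by name with their FPKM in the 5 controls against the 5 mutants already known, so the differences between these groups are given for the 8 genes as a description. Where the number of the 8 that passed the fit over all genes is printed, it stands beside the share of all genes that passed and is not read as a test of the 8. RNA was measured by sequencing of total RNA in the dorsal telencephalon, the embryonic source of the cerebral cortex, of mouse embryos of mixed C57/Bl6 and 129 SvJ background at embryonic day 12. The 5 controls had the genotype Rnu11WT/Flx::Emx1-cre+/- and the 5 mutants Rnu11Flx/Flx::Emx1-Cre+/-. Rnu11 encodes the U11 small nuclear RNA of the minor spliceosome, the machinery that removes a rare class of introns. Cre driven from Emx1 recombines floxed DNA in progenitors of the dorsal telencephalon and in the cells they give rise to. Controls thus carried Cre and 1 floxed copy of Rnu11, and mutants Cre and 2 floxed copies. Cells outside the Emx1 lineage, such as vessels, meninges and microglia, keep their Rnu11 copies in both groups.

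Vesicle fusion at a synapse is driven by SNARE proteins. Synaptobrevin 2 (Vamp2) in the vesicle membrane coils together with syntaxin 1 (Stx1a) and SNAP-25 (Snap25) in the plasma membrane, and synaptotagmin 1 (Syt1) couples this step to calcium. Synaptophysin (Syp) and synapsin I (Syn1) belong to the vesicle and its tethering, and the small GTPase Rab3a brings vesicles to the release site. At this embryonic stage few synapses exist in the cortex, and young neurons are known to use the same proteins in axon growth and membrane addition.

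Libraries are named by group and number. Rnu11 itself lay at 1910 to 2820 FPKM in controls and 473 to 1420 FPKM in mutants, without overlap, where FPKM are fragments per kilobase of transcript, scaled to the library's total. Protein-coding genes held 9.82% to 18.6% of the summed values of a library. The median ratio of a library's genes to their geometric mean over libraries was 0.8616 to 0.9075 in controls 1 to 3. In all other libraries it was 1.011 to 1.101, so levels in controls 1 to 3 were lower across genes. The dorsal markers were present in all libraries, with Emx1 at 13.6 to 24.7 FPKM and Pax6 at 21.66 to 35.71 FPKM. Control 5, mutant 4 and mutant 5 formed a second library set, with Rnu12 at 487 to 688 FPKM against 5.91 to 33.8 FPKM in the other 7 libraries, the first set. Control 4 stood apart in another way. Its 14 ventral telencephalon and interneuron markers summed to 94.9 FPKM, against 8.42 to 15.3 FPKM in the other controls and 11.2 to 36.7 FPKM in mutants, with Gsx2 and Nkx2-1 at 0 in some libraries. Of these 14 markers 3 had a higher mean in mutants. Depth, roughly estimated from the step that 1 fragment adds to low FPKM values, was 9700000 to 21100000 fragments. For a transcript of 2000 bases the Snap25 values then rest on 43.5 to 159 fragments, and those of Syt4 on 126 to 1130 fragments at its exonic length of 3892 bases.

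All 8 genes were detected and passed the filter of at least 1 FPKM in at least 5 libraries, and 6 of them reached 1 FPKM in all 10 libraries. Their levels in controls were low and lay in the order Syt4 (8.70 ± 4.30 FPKM), Syp (5.00 ± 0.798), Rab3a (4.52 ± 1.13), Syt1 (3.75 ± 2.59), Vamp2 (3.54 ± 0.934), Snap25 (2.14 ± 0.293), Syn1 (1.94 ± 1.28) and Stx1a (1.25 ± 0.481; mean FPKM ± SD, n = 5). Neighbours in this order differed by less than the larger of their SDs, except Vamp2 and Snap25, which lay 1.40 FPKM apart. Vamp2 was above Snap25 in 5 of 5 controls, and Syt1 was above Vamp2 in 2 of 5. Snap25 varied least between controls, with a coefficient of variation of 13.7%, followed by Syp with 16.0%. Syt1 and Syn1 varied most, with 69.1% and 65.9%.

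**Figure D1:**
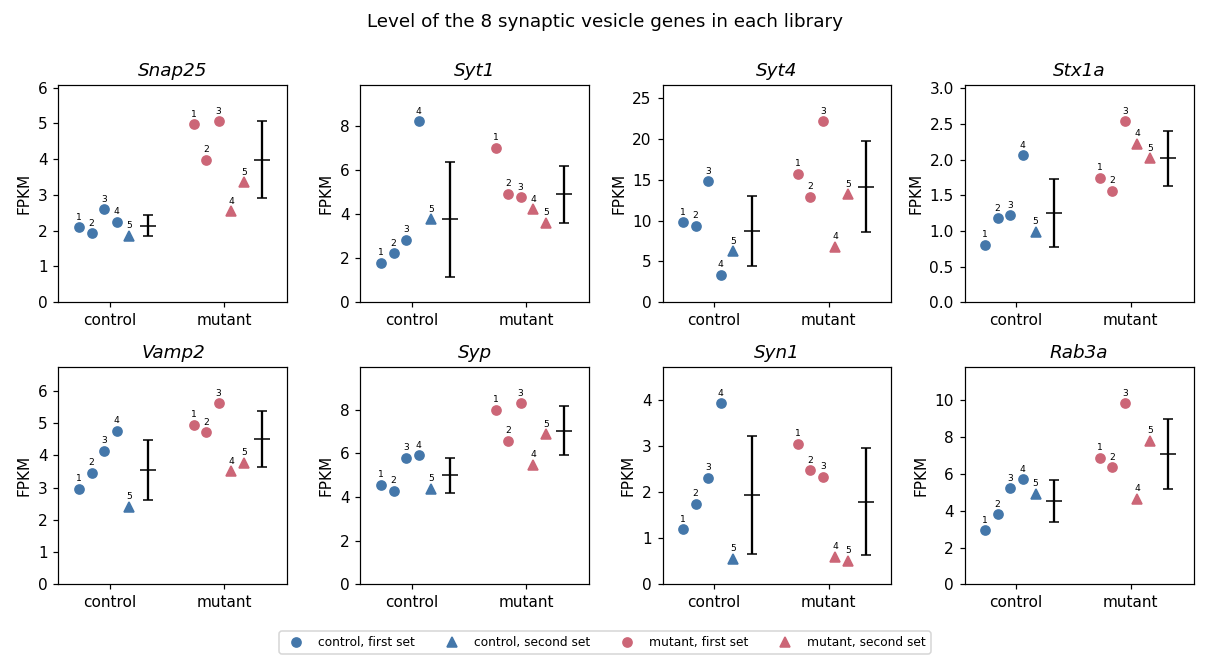
FPKM (y axis) of each of the 8 genes in the 5 control and 5 mutant libraries, with the library number above each point, circles for the first and triangles for the second library set, and the mean ± SD beside each group. For Snap25 the mutants sit between 2.54 and 5.06 and the controls between 1.86 and 2.60, and for Syn1 the 3 libraries of the second set sit at 0.51 to 0.60, below all others.

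Most of the 8 genes lay higher in mutants. The mean log2 level of 7 of the 8 was higher in mutants, as for 75.7% of all genes, and Syn1 was the exception. The same 7 lay above the difference of the median gene. The median difference over the 8 genes was 0.43 on the log2(FPKM + 1) scale, on which the change of genes this low is understated, and the median over all 13522 genes tested was 0.11. None of the 8 passed an adjusted p of 0.05 by limma over all genes (0 of 8, with 4 of 8 at an unadjusted p under 0.05, all higher in mutants), where 0.155% of all genes tested passed (0.0887% higher in mutants) and 7.69% had an unadjusted p under 0.05 and a higher level in mutants. The groups overlapped for each of the 8 genes, while they did not for 1.9% of all genes. Nothing is read from these counts, since the genes were proposed from this comparison. In whole-tissue RNA more cells of a type and more RNA per cell cannot be told apart. Whether libraries came from separate embryos is not in the labels, so the SDs and p-values measure the spread between libraries, which may be technical.

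Of the SNARE genes, Snap25 had the largest difference. Snap25 (ENSMUSG00000027273.13, chr2:136713453-136782428 in GRCm38, plus strand) lay at 2.09, 1.93, 2.60, 2.24 and 1.86 FPKM in controls 1 to 5 and at 4.97, 3.98, 5.06, 2.54 and 3.35 FPKM in mutants 1 to 5. Of the mutants 4 were above all controls, and mutant 4 was below control 3. The mean was 2.14 ± 0.293 FPKM in controls and 3.98 ± 1.07 FPKM in mutants (SD, n = 5 each), a ratio of 1.86 and a log2 difference of 0.64 (SE 0.16). The log2 difference was 0.53 after rescaling of the libraries by median ratio. It was 0.82 within the first set and 0.46 between the 2 mutants and the single control of the second set. With the library set as a term 1 of the 8 genes passed over all genes, Snap25, where 0.547% of all genes did. In the first set alone 1 of the 8 genes passed, again Snap25, with 0.747% of all genes. Leaving out any 1 library in turn, 0 of the 8 genes passed, where 0.0148% to 0.584% of all genes did, the latter without control 5. Without control 4 the share of all genes was 0.0813% (0.0592% higher in mutants).

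Stx1a (ENSMUSG00000007207.10, chr5:135023482-135051100), the plasma membrane partner of Snap25, was the least abundant of the 8 genes in controls. It lay at 0.81, 1.18, 1.22, 2.06 and 0.99 FPKM in controls 1 to 5 and at 1.75, 1.56, 2.54, 2.22 and 2.02 FPKM in mutants 1 to 5. Control 4 was within the range of the mutants, and the other 4 controls were below all mutants. The ratio of means was 1.61 (log2 difference 0.44, SE 0.16), and 1.92 without control 4. Vamp2 (ENSMUSG00000020894.16, chr11:69088490-69092384), the vesicle SNARE, lay at 2.96, 3.46, 4.14, 4.76 and 2.40 FPKM in controls and 4.95, 4.71, 5.61, 3.51 and 3.76 FPKM in mutants. Its log2 difference was 0.29 (SE 0.16), the smallest above 0 among the 8 genes, and 0.19 without control 5. Libraries of the second set were lower for Vamp2 than those of the first within each group.

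Per length, Snap25, Vamp2 and Stx1a were each below a more widely expressed relative in 10 of 10 libraries, and Syp was below its relative in 9 of 10. Snap23, the relative of Snap25 in most cell types, averaged 6.87 ± 1.10 FPKM over controls and 8.10 ± 1.08 over mutants (SD, n = 5). The ratio of Snap25 to Snap23 was below 1 in 10 of 10 libraries, at 0.214 to 0.417 in controls and 0.258 to 0.705 in mutants. Vamp2 stood at 0.058 to 0.126 of Vamp3, its counterpart in recycling endosomes, in controls and at 0.0915 to 0.167 in mutants. Stx1a stood at 0.0272 to 0.0571 of Stx12, a syntaxin of endosomes, in controls and at 0.0472 to 0.0716 in mutants. Against another syntaxin, Stx4a, it stood closer, at 0.244 to 0.943 in controls and 0.376 to 0.994 in mutants. Syp stood at 0.462 to 0.774 of Sypl, its relative outside the nervous system, in controls and 0.609 to 1 in mutants, where the top value, from mutant 3, is the library in which Syp was not the lower.

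**Figure D2:**
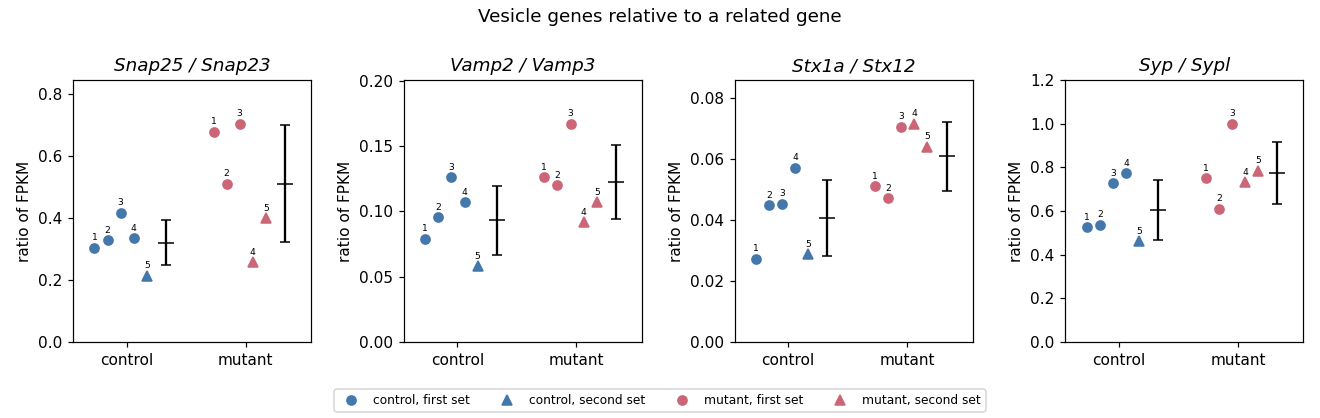
Ratio of FPKM (y axis) of 4 of the genes to a related gene in each library, with library numbers above the points, circles and triangles for the first and second library set, and mean ± SD beside each group. The Snap25 to Snap23 ratio is under 1 in every library, and the Stx1a to Stx12 ratio reaches 0.0716 in mutant 4 and 0.0571 in control 4.

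The 2 synaptotagmins of the set both had a higher mean in mutants, but lay at opposite ends in control 4. Syt1 (ENSMUSG00000035864.14, chr10:108497650-109010982), the calcium sensor of fast release, lay at 1.78, 2.21, 2.82, 8.20 and 3.75 FPKM in controls 1 to 5 and at 7.01, 4.91, 4.75, 4.21 and 3.61 FPKM in mutants 1 to 5. Control 4 was the highest of all 10 libraries for Syt1, and the other controls were below all mutants but mutant 5. The log2 difference was 0.43 (SE 0.29), and 0.70 without control 4. Syt4 (ENSMUSG00000024261.6), a synaptotagmin found on dense-core vesicles, lay at 9.79, 9.34, 14.80, 3.33 and 6.22 FPKM in controls and 15.71, 12.94, 22.15, 6.75 and 13.23 FPKM in mutants. Here control 4 was the lowest library. The log2 difference of Syt4 was 0.69 (SE 0.36), the largest of the 8 genes, and 0.43 without control 4. Syt4 was above Syt1 in 9 of 10 libraries, by 1.6 to 5.49 times, and stood at 0.407 of Syt1 in control 4.

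Control 4 differed from the other controls in regional genes as well. Neurod6, a transcription factor of dorsal excitatory neurons, lay at 9.24 FPKM in control 4 and at 45.55 to 62.29 FPKM in the other controls, and the LIM factor Isl1 of ventral neurons at 14.9 FPKM against 0.13 to 1.52. Slc32a1, the vesicle loader for GABA, was listed at 0.83 FPKM in control 4 and at 0 to 0.02 in the other controls. Control 4 was the highest control for 6 of the 8 vesicle genes. Among the other controls and the mutants, mutant 1 had the highest ventral marker sum, 36.7 FPKM, and the highest Syt1. Mutant 4 had the next highest ventral sum, 28.4 FPKM, and Syt1 at 4.21 FPKM, below all mutants of the first set. The part of ventral tissue in the values of Syt1 and Syt4 was not tested. In the first set without control 4, a choice made after seeing the data, the log2 difference was 1.00 for Syt1, 0.54 for Syt4 and 0.82 for Snap25. There 4 of the 8 genes passed by limma, with 15.0% of all genes (14.3% higher), and the groups did not overlap for 7 of 8, with 39.9% of all genes higher without overlap.

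**Figure D3:**
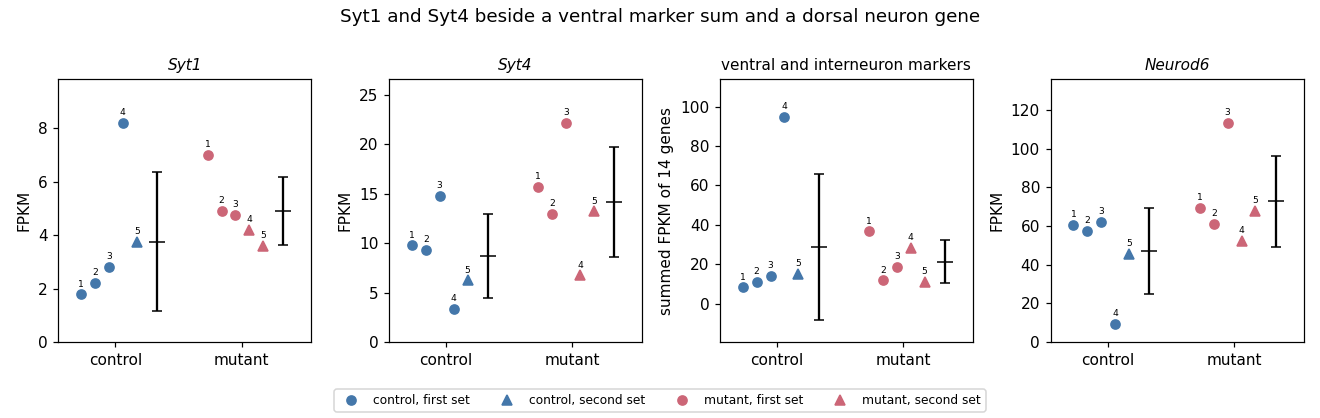
FPKM of Syt1, Syt4 and Neurod6 and summed FPKM of 14 ventral and interneuron markers (y axes) in each library, with library numbers, circles and triangles for the first and second library set, and mean ± SD beside each group. Control 4 is the highest library for Syt1 (8.20 FPKM) and for the ventral sum (94.9 FPKM) and the lowest for Syt4 (3.33 FPKM) and Neurod6 (9.24 FPKM).

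Syp (ENSMUSG00000031144.15, chrX:7638471-7653256), an abundant vesicle membrane protein that binds synaptobrevin, lay at 4.56, 4.30, 5.80, 5.92 and 4.39 FPKM in controls 1 to 5 and at 8.0, 6.59, 8.29, 5.49 and 6.87 FPKM in mutants 1 to 5. As with Snap25, 4 mutants were above all controls and mutant 4 was not. The log2 difference was 0.42 (SE 0.13), 0.49 within the first set and 0.41 within the other. Rab3a (ENSMUSG00000031840.12, chr8:70754679-70758677) lay at 2.94, 3.81, 5.21, 5.71 and 4.91 FPKM in controls and 6.86, 6.35, 9.82, 4.64 and 7.79 FPKM in mutants, a log2 difference of 0.55 (SE 0.19). For Rab3a too, mutant 4 was the only mutant not above all controls. The difference of Rab3a came to 0.69 within the first set and 0.25 within the other.

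Synapsin I did not lie higher in mutants over all libraries. Syn1 (ENSMUSG00000037217.15, chrX:20860511-20921004), which tethers vesicles to actin, lay at 1.19, 1.74, 2.31, 3.92 and 0.56 FPKM in controls 1 to 5 and at 3.05, 2.47, 2.33, 0.60 and 0.51 FPKM in mutants 1 to 5. The 3 libraries of the second set were below the 7 of the first, whatever the genotype. The log2 difference was -0.08 (SE 0.36). It was 0.20 in the first set and 0.14 with the library set as a term, so the direction of Syn1 depended on the libraries. It was also above 0 without control 4 (0.13), mutant 4 (0.09) or mutant 5 (0.11). Between the sets, a contrast that did not choose the genes, Syn1 and Vamp2 passed by limma with genotype in the fit, at log2 differences of -1.13 and -0.43 (second minus first), where 20.8% of all genes tested passed. The other 6 genes did not pass, with differences from -0.59 for Syt4 to -0.02 for Stx1a.

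Transcripts rich in G and C lay lower in the second set. The median log2 difference between the sets was 0.22 in 2980 tested protein-coding genes with under 45% GC in their longest transcript and -0.15 in 2406 genes with over 55% (Spearman's rho -0.43 across 11041 genes, which are not independent replicates). Syn1 and Stx1a both have 57.9% GC, with -1.13 and -0.02 between the sets. Snap25, with 38.7% GC, lay at -0.38. The part of base composition in these values was not tested.

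The upstream sequences of Syn1 and Stx1a are shown because these genes share their transcript GC content and part between the library sets. Of the 8 genes 5 had promoter windows in the RefSeq table of GRCm38.p6, with 7 windows in all. The first lies on the minus strand at chrX:20921005-20921168 and the second on the plus strand at chr5:135023232-135023481, each written 5′ to 3′ on the strand of the gene and ending before the outermost annotated transcript start. Capitals mark motif letters found by search on both strands.
Syn1: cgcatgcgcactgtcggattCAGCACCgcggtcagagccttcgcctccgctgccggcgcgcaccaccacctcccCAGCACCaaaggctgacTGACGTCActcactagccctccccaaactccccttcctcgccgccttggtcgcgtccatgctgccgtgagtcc
Stx1a: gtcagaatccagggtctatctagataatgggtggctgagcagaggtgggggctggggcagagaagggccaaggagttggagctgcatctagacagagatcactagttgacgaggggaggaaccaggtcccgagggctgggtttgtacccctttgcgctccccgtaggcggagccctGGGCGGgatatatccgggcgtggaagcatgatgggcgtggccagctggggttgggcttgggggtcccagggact
In Syn1 the capitals are 2 copies of CAGCACC, the left core of the RE1 element bound by the repressor REST, 230 and 176 bases before the RefSeq start, and the cAMP response element core TGACGTC, which overlaps its own reverse complement, 159 bases before it. In Stx1a they are the GC box core GGGCGG, 74 bases before the start. In the 250 bases before the RefSeq start, CAGCACC was found in 1 of the 7 windows and in 5.73% of 32851 windows of all genes, TGACGTC in 1 of 7 and 2.78%, and GGGCGG in 4 of 7 and 32.7%. The right core of RE1, GGACAGC, was in 0 of 7 and 5.28%, and the TATA box core TATAAA in 0 of 7 and 12.4%. These matches describe letters and are not evidence of binding.

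**Figure D4:**
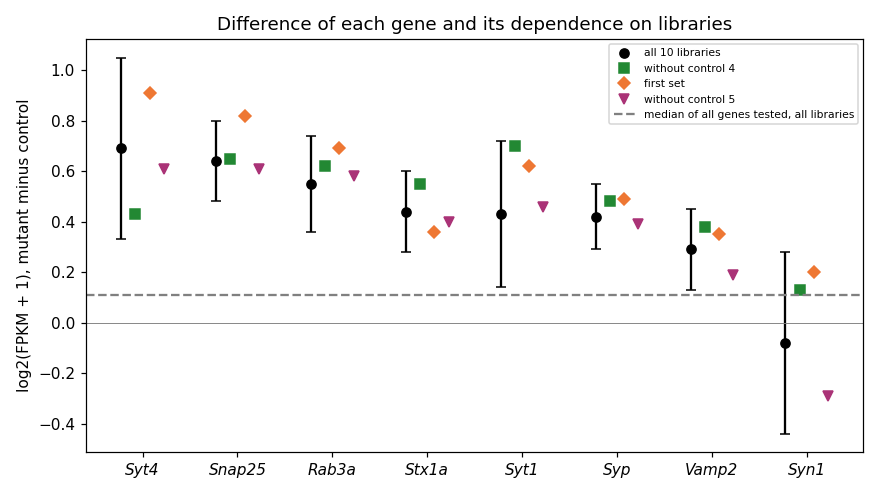
Difference between mutants and controls on the log2(FPKM + 1) scale (y axis) for each of the 8 genes, from all libraries (black, with its standard error) and without control 4, within the first set, or without control 5 (coloured), with the median of all genes tested, 0.11, as a dashed line. Syt4 falls from 0.69 to 0.43 and Syt1 goes from 0.43 to 0.70 without control 4, and Syn1 lies on both sides of 0.

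Genes with the profile most like that of Snap25 were sought by Pearson's r of log2(FPKM + 1) over the 10 libraries among 10734 tested protein-coding genes. The first 6 were Syp (r = 0.949), the TNF receptor family gene Eda2r (0.948), the anoctamin gene Ano3 (0.939), the epoxide hydrolase gene Ephx1 (0.934), the potassium channel gene Kcnj5 (0.933) and Anks1b (0.929), which encodes a postsynaptic scaffold protein. The libraries share the difference between the groups, and after subtraction of group means r was 0.804 to 0.935 for these 6 genes, highest for Anks1b and 0.873 for Syp. In the first set alone Ano3 (0.963), Eda2r (0.959) and Anks1b (0.957) were above Syp (0.943), so the order of the 6 depends on the libraries. Eda2r lay at 1.53 to 2.84 FPKM in controls and 5.95 to 21.3 FPKM in mutants. Of the other vesicle genes, Rab3a had an r of 0.814 (rank 205), Vamp2 0.789 (rank 274), Syt4 0.736 (rank 522), Stx1a 0.614 (rank 1252), Syt1 0.499 (rank 2239) and Syn1 0.369 (rank 3563). After subtraction of group means Syn1 reached 0.754 and Stx1a 0.07. The lowest correlation among the 8 genes was that of Syt1 with Syt4, -0.18 over 10 libraries. Control 4, the highest library for Syt1 and the lowest for Syt4, is among these libraries.

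Neuron markers were higher in mutants alongside. All 27 markers of early excitatory neurons had a higher mean in mutants, where 75.7% of all genes had a higher mean log2 level. Their sums were 613 to 927 FPKM in controls and 736 to 1070 FPKM in mutants, and none was at 0 in any library. Their median log2 difference was 0.37, against 0.43 for the 8 vesicle genes and 0.11 for all genes. Within the first set these medians were 0.51, 0.56 and 0.16. Within the second set, with its single control, they were 0.14, 0.43 and -0.08. The highest control sum, 927 FPKM, was that of control 4, which had the highest Tubb3 and Dcx of the controls but the lowest Neurod6 and Neurod2. Set against the mean log2 level of these 27 markers in each library, Snap25 lay at -2.17 ± 0.18 in controls and -1.90 ± 0.13 in mutants (SD, n = 5), a difference of 0.27. The same difference was 0.32 for Syt4, 0.18 for Rab3a, 0.07 for Stx1a, 0.06 for Syt1, 0.05 for Syp, -0.08 for Vamp2 and -0.45 for Syn1. Without control 4 it was 0.20 for Snap25, -0.02 for Syt4, 0.18 for Rab3a, 0.11 for Stx1a, 0.25 for Syt1, 0.03 for Syp, -0.07 for Vamp2 and -0.32 for Syn1. The log2(FPKM + 1) scale understates changes of low genes, and so these differences from markers at higher levels. With a pseudocount of 0.1 the median difference of the 8 genes, before this subtraction, was 0.6 against 0.43. Of the microglia markers 6 of 6 had a higher mean in mutants, and none was at 0. Their sums were 12.7 to 27.9 FPKM in controls and 18.3 to 60.2 FPKM in mutants, highest in mutants 1 and 3. In mutants 4 and 5 the sums, 18.3 and 21.8 FPKM, lay within the range of the controls, though above the 12.7 FPKM of control 5. Sums of the 8 markers of meninges and pericytes were 62.3 to 149 FPKM in controls and 75.9 to 183 FPKM in mutants. Of 13 radial glia markers 10 had a higher mean in mutants, with sums of 630 to 778 FPKM in controls and 776 to 804 FPKM in mutants. Of 11 intermediate progenitor markers 10 did, with sums of 196 to 251 and 226 to 243 FPKM. Median log2 differences were 0.12 for radial glia and 0.17 for intermediate progenitor markers. The part of these cells in the vesicle genes' levels was not tested.

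The other genes of the vesicle cycle showed smaller differences. The 6 lists, drawn up from general knowledge of the cycle, held 100 genes besides the 8, of which 74 were tested. None passed over all genes by limma, with 16 higher and 0 lower at an unadjusted p under 0.05, where 7.69% of all genes were higher and 1.07% lower. By limma without trend and robust moderation 0 passed as well. Of the 74, 57 lay above the median of all genes, and their median log2 difference was 0.19 against 0.11. Within the first set it was 0.31, where all genes had 0.16, and within the other 0.00, where all genes had -0.08. The groups did not overlap for 4 genes, all higher in mutants, with 1.52% of all genes: the SNARE disassembly factor Napa, the glutamate loader Slc17a6, and Amph and Bin1, the amphiphysins of vesicle recycling. Slc17a6 is also 1 of the 27 neuron markers. In the first set without control 4, 34 of the 74 passed, beside 15.0% of all genes.

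Among SNARE partners and regulators 15 of 21 genes were tested, with a median of 0.21 and 15 of 15 above 0. Napa averaged 10.3 ± 1.28 FPKM over controls and 13.7 ± 1.84 over mutants (SD, n = 5, the order kept for the pairs of values below; log2 difference 0.38, limma adjusted p = 0.357), and complexin 2 (Cplx2) at 4.31 ± 0.611 and 5.77 ± 1.33 FPKM (0.34, adjusted p = 0.546). Stxbp5 (tomosyn), which holds syntaxin back from fusion, was the nearest to 0, at 0.01, with 0.24 in the first set and -0.01 with the library set as a term. The priming factor Unc13a lay at 4.07 ± 2.20 and 4.25 ± 0.981 FPKM. Vamp1 and Cplx1 were low, at 0.713 ± 0.105 and 0.771 ± 0.298 FPKM and at 0.942 ± 0.344 and 1.27 ± 0.425 FPKM. Unc13a was highest in control 4, at 7.83 FPKM.

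Of 15 other synaptotagmins 6 were tested, with a median of 0.15. Syt5 lay at 3.34 ± 0.708 and 4.36 ± 0.551 FPKM (log2 difference 0.31, limma adjusted p = 0.537) and Syt14 at 7.34 ± 1.14 and 8.60 ± 0.810 FPKM (0.21, adjusted p = 0.624). Syt11, which does not bind calcium, was by far the most abundant, at 50.5 ± 9.73 and 52.1 ± 10.5 FPKM (0.04, adjusted p = 0.953), with -0.05 in the first set. Syt1 stood at 0.0458 to 0.146 of Syt11 in controls. Of 20 genes of the vesicle membrane 17 were tested, with a median of 0.18. The proton pump subunit Atp6v1g2 (0.779 ± 0.334 and 1.59 ± 0.491 FPKM, log2 difference 0.54, limma adjusted p = 0.357) and synaptogyrin 1 (Syngr1, 1.51 ± 0.205 and 2.47 ± 0.972 FPKM, 0.43, adjusted p = 0.553) were the highest. Atp6v1g2 reached 1 FPKM in all mutants and in control 4 alone of the controls, so it passed the filter through the group where it is high. The other synapsins were Syn2, at 0.708 ± 0.246 and 1.24 ± 0.650 FPKM, and Syn3, at 2.95 ± 2.11 and 2.87 ± 1.10 FPKM, the lowest difference in this list at 0.05. Syn3 was at 6.68 FPKM in control 4 and at 1.47 to 2.43 in the other controls, and without control 4 its difference was 0.33, above the median of 0.24 that the list then had. Sv2a, a transporter-like vesicle protein, lay at 1.11 ± 0.388 and 1.49 ± 0.421 FPKM.

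In the Rab3 cycle 10 of 11 genes were tested, with a median of 0.18. Rab3il1, an exchange factor for Rab proteins, lay at 2.94 ± 1.14 and 4.56 ± 1.09 FPKM (log2 difference 0.53, limma adjusted p = 0.499), and Rab3ip at 10.9 ± 2.02 and 11.4 ± 1.68 FPKM (0.08). Rab3b and Rab3c, close relatives of Rab3a, lay at 1.26 ± 0.510 and 1.80 ± 0.213 FPKM and at 3.03 ± 1.74 and 3.50 ± 0.927 FPKM. Rab3a was above Rab3b in 10 of 10 libraries. Of 13 active zone genes 8 were tested, with a median of 0.17. The liprin gene Ppfia2 (log2 difference 0.44, limma adjusted p = 0.501) and the Rab3 effector Rims2 (0.30, adjusted p = 0.573) were highest and Ppfia1 (-0.04, adjusted p = 0.959) lowest. Ppfia1 was at 31.04 FPKM in control 4 and 15.52 to 20.94 in the other controls, and its difference was 0.12 without control 4 and 0.08 in the first set. Of 20 genes of vesicle recycling 18 were tested, with a median of 0.22, from the clathrin adaptor subunit Ap2m1 (0.37, limma adjusted p = 0.357) and Bin1 (0.33, adjusted p = 0.346) to the endophilin gene Sh3gl2 (0.03, adjusted p = 0.98), which was at -0.06 without control 4.

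The comparison list of SNAREs of general traffic had a median of 0.13 over 28 tested genes of 29, close to the 0.11 of all genes, and 15 of 28 lay above the median of all genes. None passed by limma, with 2 higher and 0 lower at an unadjusted p under 0.05. Gosr1, a Golgi SNARE, lay highest, at 10.2 ± 2.56 and 16.0 ± 3.90 FPKM (log2 difference 0.61, limma adjusted p = 0.362), followed by Stxbp2 (0.35, adjusted p = 0.652), and Vamp7 lowest (-0.07, adjusted p = 0.884). Whether the 8 genes differed from these lists was not tested.

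**Figure D5:**
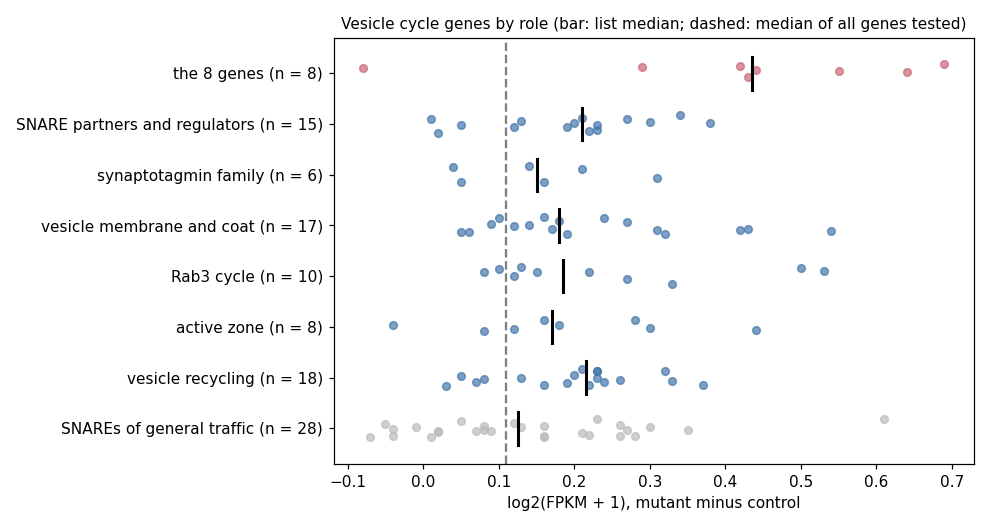
Difference between mutants and controls on the log2(FPKM + 1) scale (x axis) for the tested genes of each list (rows), with 1 point per gene, a bar at the median of the list and a dashed line at the median of all genes tested. The 8 genes have a median of 0.43, the 6 lists of other vesicle cycle genes have medians of 0.15 to 0.22, and the SNAREs of general traffic have 0.13.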

How the data were processed

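The authors deposited a gene symbol and a value per gene for each library. These lists have no header and the labels name no unit; the values the authors deposited are taken as FPKM, as they are not whole and sum to 1996700 to 3051430 per library. The submitters' processing notes name HISAT2 and the mouse build mm10 (GRCm38), and RNA was extracted with Trizol and made into stranded libraries after Ribo-Zero treatment, per the labels' protocols. Counting program, annotation and strand use: not given in the sources used here. Syt4 and Syp share 566 and 875 exonic bases with antisense genes listed at up to 0.181 and 0.225 FPKM, and Rab3a and Syn1 share 29 and 9 with Mpv17l2 and Araf, so reads there could be assigned to either gene. Isoforms cannot be told apart.

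log2(FPKM + 1) was fitted with limma 3.58.1 in R 4.3.3 (trend and robust moderation, genotype as the single term) over the 13522 genes that reached 1 FPKM in 5 or more libraries, with Benjamini-Hochberg adjustment. The procedure was tested on simulated data with independent noise for each gene and library. The simulation held no library sets and no outlying library, so it cannot show how the procedure handles them. Positions and transcripts are those of GENCODE M21 on GRCm38. The 8 genes and the lists were chosen with earlier results of these data known. The genes named in the lists were the 2 with the largest and the 1 with the smallest difference in each, and listed relatives of the 8 genes; some of these genes are not reported here. The library sets are not in the labels; they were taken over from an earlier description of these data and differ in short non-coding RNAs such as Rnu12. Depth was estimated from single-transcript genes, for which 100 to 172 low genes per library shared the step within 2%. Alternatives were other pseudocounts, filters, scalings and terms, and leaving out each library. Python 3.11.15, pandas 2.3.3 and matplotlib 3.10.9 made tables and figures.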

Additional observations from a re-analysis of the deposited data

Results flagged for a closer look

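In 4 of 48 groups of 5 libraries the most extreme library lay farther from the nearest other than 0.71 of the range of its group, where chance gives about 5% of groups. No group of the 8 vesicle genes was among them. Control 4 was far above the other controls in the summed FPKM of ventral telencephalon and interneuron markers (94.9), of Cajal-Retzius markers (85.4) and of early excitatory neuron markers (927). The genes of the last list did not move together there. Tubb3, Dcx and Stmn3 were highest of the controls in control 4, and Neurod6, Neurod2 and Fezf2 were lowest. Mutant 3 was far above the other mutants in the sum of endothelial markers (50.3).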

How the results depend on the processing

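The log2 differences of Snap25, Syp, Rab3a, Stx1a, Syt1, Syt4 and Vamp2 kept their direction in all 21 alternatives run, with ranges of 0.50 to 0.83, 0.30 to 0.55, 0.42 to 0.80, 0.32 to 0.69, 0.27 to 1.00, 0.43 to 0.91 and 0.15 to 0.44. Syn1 changed sign with the library set as a term (0.14), in the first set alone (0.20), without control 4 (0.13), mutant 4 (0.09) or mutant 5 (0.11), and in the first set without control 4 (0.41), the last chosen after seeing the data. Without 1 library it ran from -0.29 (control 5) to 0.13. The number of genes called over the whole table, 21, became 2 with no filter, 35 with quantile normalization, 74 with the library set as a term, 101 in the first set alone, 11 without trend and robust moderation and 2023 in the first set without control 4. With 1 library left out in turn it ran from 2 (control 1, control 2, mutant 2 or mutant 3 left out) through 4 (control 3), 9 (mutant 1), 10 (mutant 5), 11 (control 4) and 26 (mutant 4) to 79 (control 5). The cause was not tested. Higher against lower calls were 12 and 9, and 11 and 17 after rescaling by median ratio or 13 and 22 after quantile normalization, each of which moved the median of all genes from 0.11 to -0.01 and after the first of which the median of the 8 genes was 0.34. Called vesicle genes besides the 8 went from 0 to 34 in the first set without control 4. The median r of the 6 genes most like Snap25, 0.94, was 0.84 after subtracting group means and 0.95 in the first set. With a replicate block 14 genes passed and the median of the 8 genes stayed at 0.43. The numbers were not taken as pairing, since deviations of same-numbered libraries correlated at -0.107 to 0.521, and best with their own number in 2 of 5 pairs. Genes near 1 FPKM, such as Stx1a and Syn1, rest on few fragments.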

Other observations

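Genes of dense-core vesicles, which carry peptides and do not belong to the synaptic vesicle, had higher means in mutants, with overlapping groups. Scg3, a granin of secretory granules, lay at 7.17, 8.84, 8.47, 18.81 and 13.92 FPKM in controls 1 to 5 and at 15.73, 13.99, 18.22, 15.31 and 13.29 FPKM in mutants 1 to 5, with control 4 the highest library. Its log2 difference was 0.46, and that of the granin Chga 0.31. Neither passed over all genes by limma. These were the 2 tested of 10 listed markers of other neurons and secretory cells, and they were chosen for description after their values were seen. The vesicle loaders differed in the library with ventral markers: Slc17a7, which loads glutamate, was lowest of all libraries in control 4 (0.61 FPKM), while Slc17a6 was at 6.77 FPKM there, within the range of the controls.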
